A study of Equus caballus with 28 samples.

Results

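Of the 690 mature horse miRNAs listed in every library, 293 carry a number from 8900 to 9200, from miR-8908a to miR-9185. Membership was set by that number alone, with no measured value used. The range itself was picked for study with earlier results of these data known. The other 397 listed miRNAs, most of which share a number with counterparts in other species, served as the comparison. Small RNA had been sequenced from the synovial fluid of the distal interphalangeal joint of 17 horses, 5 with mild osteoarthritis (OA) and 12 labelled moderate-severe OA (severe OA below), and from the plasma of 11 of these horses, 3 from the mild and 8 from the severe group. M1 to M5 and S1 to S12 stand for the horses of each group, youngest first. The mild group was aged 5.17 to 13 years and the severe group 7.67 to 34.3 years, with females and males in both. The labels give 5 breeds for the mild and 11 for the severe group, mostly warmbloods in the first and ponies, cobs, crosses and sports horses in the second, with the Thoroughbred the 1 breed in both, so breed and severity cannot be told apart. The horses carried no treatment in the labels, and the synovial fluid was drawn after euthanasia. The labels also give chondrocytes as the cell type beside the name of the fluid, although cell-free fluid was sequenced.

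A miRNA is cut from a hairpin in a longer transcript by the enzymes Drosha and Dicer, and then guides an Argonaute protein to matching messenger RNAs. miRBase numbers miRNAs in the order in which they are registered and gives counterparts in other species the same number, so a high number marks a late entry. Many miRNA genes lie in introns of protein-coding genes and share their transcript, others lie in clusters that are transcribed together. In plasma the abundant miRNAs come largely from blood cells, platelets, vessel walls and liver. In body fluids miRNAs are carried in vesicles, lipoproteins and protein complexes. RefSeq (assembly TB-T2T) has a gene for 283 of the 293 miRNAs, of which 197 overlap a protein-coding gene, and the table used here holds no strand, so the orientation to the host gene is unknown.

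Reads assigned to miRNAs numbered between 53194 and 1431024 in a synovial fluid library and between 934841 and 4623631 in a plasma library. One read therefore stood for 0.699 to 18.8 RPM, the read count scaled to a fixed total of miRNA reads, in synovial fluid and for 0.216 to 1.07 RPM in plasma. The 4 red blood cell miRNAs miR-451, miR-486-5p, miR-144 and miR-363 were all present. Together they stood at 73833 to 743470 RPM in synovial fluid and 229452 to 755752 RPM in plasma. Over all libraries of each fluid the median of this sum was 324946 RPM in both. All 4 were called higher in plasma than in synovial fluid in the comparison described below, each higher in 8 to 10 of 11 horses. Of the 4 miRNAs of platelets and myeloid cells, 3 were also called higher in plasma (miR-223, miR-142-3p and miR-142-5p). The other, miR-126-3p, was not called, and was lower in plasma in 8 of 11 horses and higher in 3. The 4 platelet and myeloid miRNAs summed to 650 to 7969 RPM in synovial fluid and 3048 to 64755 RPM in plasma. The cartilage miRNAs miR-140-3p and miR-140-5p had reads in both fluids, together 75.7 to 1490 RPM in synovial fluid and 91.5 to 681 RPM in plasma, with miR-140-5p called lower and miR-140-3p higher in plasma. miR-122, the abundant miRNA of liver, lay between 8.25 and 635 RPM in synovial fluid and between 2.27 and 5399 RPM in plasma, and was not called. The part that these cell types have in the levels given below was not tested.

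Most of the numbered miRNAs were not seen. No read fell on 190 of the 293 (64.8%) in any of the 28 libraries, against 72 of the other 397 (18.1%). Synovial fluid (17 libraries) held at least 1 read of 82 of them and plasma (11 libraries) of 69, and 48 were seen in both. In the 11 horses with both fluids, synovial fluid held 67 of them and 291 of the other miRNAs. The lists and their overlap therefore also depend on the number of libraries. These 48 were 58.5% of the synovial fluid list and 69.6% of the plasma list. For the other miRNAs, 301 were seen in synovial fluid, 313 in plasma and 289 in both, which is 96.0% of the first list and 92.3% of the second.

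Many of the detections rested on single reads. In synovial fluid 30 of the 82 had 1 read in all 17 libraries together, and in plasma 13 of the 69. For the other miRNAs it was 19 of 301 and 11 of 313. Of the 34 seen in synovial fluid alone, 21 had a single read, and of the 21 seen in plasma alone, 7 had a single read. Among the other miRNAs, 7 of 12 and 8 of 24 did, so this trait is not particular to the numbered miRNAs. With at least 3 reads in a library required, 32 remained in synovial fluid and 43 in plasma, and with at least 10 reads 10 and 29. Only 4, miR-8992, miR-9021, miR-9060 and miR-9097, had a read in every synovial fluid library, while 15 had a read in every plasma library. Of the other 397 miRNAs, 141 and 197 did.

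Per library, synovial fluid held 13 to 31 of the numbered miRNAs (21.7 ± 4.66, SD, n = 17) and plasma 29 to 40 (35.6 ± 3.59, SD, n = 11). In percent of each list, 7.41 ± 1.59 (SD, n = 17) of the numbered miRNAs and 54.0 ± 4.65 of the others were seen in a synovial fluid library, and 12.2 ± 1.22 (SD, n = 11) against 66.2 ± 3.20 in a plasma library. The share was lower for the numbered miRNAs in 28 of 28 libraries. More of them were seen in plasma than in synovial fluid in 11 of 11 horses, but the plasma libraries held 1.81 to 56.3 times as many miRNA reads.

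At equal depth plasma did not hold more of the numbered miRNAs on average. The number expected to have at least 1 read was computed for 53194 miRNA reads per library, the total of the shallowest library (synovial fluid of S6). It was 12.3 ± 4.26 (SD, n = 17) in synovial fluid and 9.82 ± 2.59 (SD, n = 11) in plasma, and was lower in plasma in 8 of the 11 horses with both fluids. The ranges overlapped, with 4.18 to 20.7 in the 17 synovial fluid libraries against 5.53 to 15.6 in the 11 of plasma. The other miRNAs showed the same order, with 182 ± 11.7 in synovial fluid and 164 ± 18.1 in plasma, lower in plasma in 9 of 11 horses. At 10000 reads the numbered miRNAs were at 4.17 ± 1.93 (SD, n = 17) in synovial fluid and 3.96 ± 1.49 (SD, n = 11) in plasma. There plasma was higher in M4, S5, S7, S8 and S11 and lower in the other horses with both fluids, so the order is not firm. Counts at full depth therefore cannot be compared between the fluids.

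**Figure D1:**
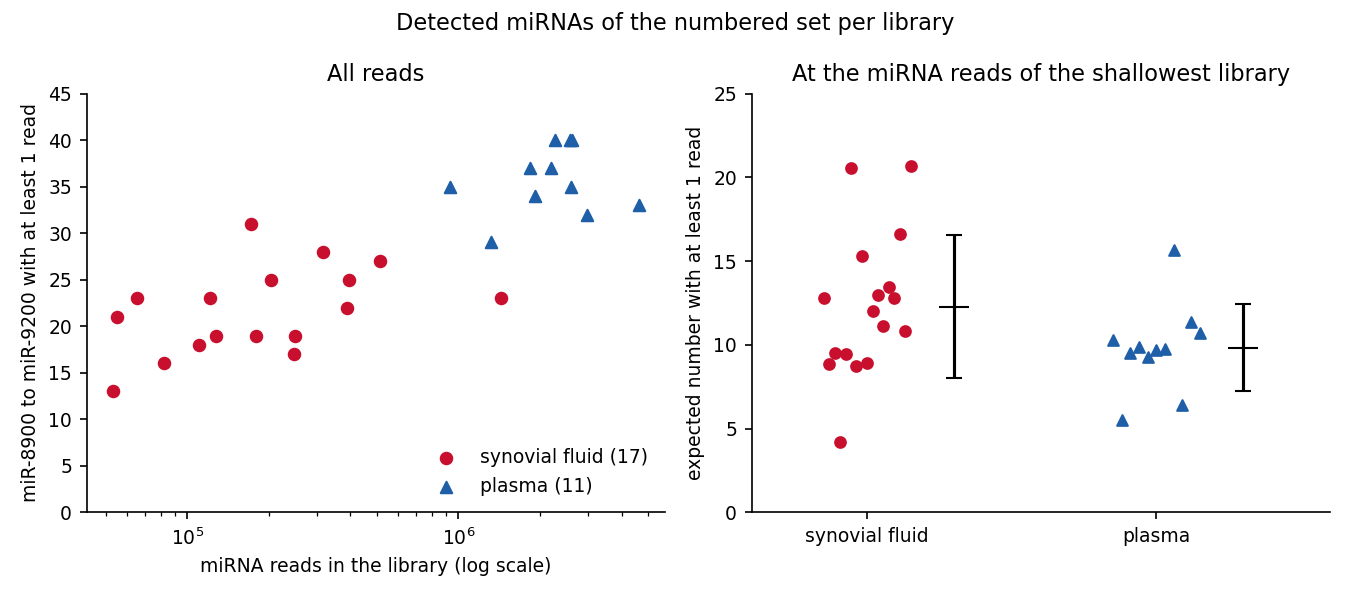
The left panel plots, for each of 17 synovial fluid libraries (red circles) and 11 plasma libraries (blue triangles), the number of the 293 miRNAs with at least 1 read against the miRNA reads of the library on a log scale, and plasma lies higher at 29 to 40. The right panel gives the number expected at 53194 miRNA reads for the same libraries, with the mean and SD beside the points, and here the fluids overlap with means of 12.3 and 9.82.

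The sets seen in both fluids of a horse overlapped in part. In the 11 horses with both, 6 to 22 of the miRNAs had a read in both fluids of a horse. That was 46.2 to 84.2% of those seen in its synovial fluid and 20.7 to 55.0% of those seen in its plasma. For the other miRNAs the shares were 91.6 to 97.4% and 66.8 to 85.4%. The plasma libraries were the deeper ones in all of these horses, and single reads make up much of the sets, so depth limits these shares.

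Together the numbered miRNAs took a very small part of the miRNA reads, 1753 reads in all of synovial fluid and 15394 in all of plasma. The share was 0.0615 ± 0.0450% (SD, n = 17) in synovial fluid, from 0.0106 to 0.192%, and 0.0671 ± 0.0300% (SD, n = 11) in plasma, from 0.0150 to 0.107%. Plasma was higher in 6 of 11 horses and lower in 5. The lowest synovial fluid share was in M4 and the lowest plasma shares in M3 and S9. In these libraries miR-451 alone took 53.6%, 57.6% and 60.2% of the miRNA reads, and it takes part in the denominator. Without miR-451 in the denominator the shares were 0.0720 ± 0.0461% (SD, n = 17) and 0.0881 ± 0.0316% (SD, n = 11), and plasma was higher in 7 of 11 horses. miRNAs made up 0.654 to 20.1% of all reads of a synovial fluid library and 16.6 to 73.7% in plasma. In RPM by the whole library, as the authors also deposited it, the numbered miRNAs summed to 13.0 ± 6.28 (SD, n = 17) in synovial fluid and 279 ± 147 (SD, n = 11) in plasma, higher in plasma in 11 of 11 horses.

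The numbered miRNAs were also low in level. Over the detected miRNAs, the median of the mean level was 1.06 RPM in synovial fluid and 0.633 RPM in plasma for the numbered miRNAs, against 51.3 and 23.0 RPM for the others. A mean of at least 10 RPM was reached by 12 of the numbered miRNAs in synovial fluid and 10 in plasma, against 193 and 177 of the others. At 100 RPM, 1 remained in each fluid, miR-8922 in synovial fluid at rank 132 of all miRNAs and miR-9021 in plasma at rank 98. The mean of miR-8922 rests mainly on S12 and S2. Its synovial fluid median, given below, was lower than those of miR-9021, miR-9060 and miR-8992. The most abundant miRNA of both fluids was miR-451, with a mean of 185833 RPM in synovial fluid and 275859 RPM in plasma. The 4 numbered miRNAs with the most reads held 53.3% of the reads of the numbered miRNAs in synovial fluid and 65.2% in plasma. Among the other miRNAs the top 4 held 60.8% and 57.3%, so this trait is not particular to the numbered miRNAs.

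**Figure D2:**
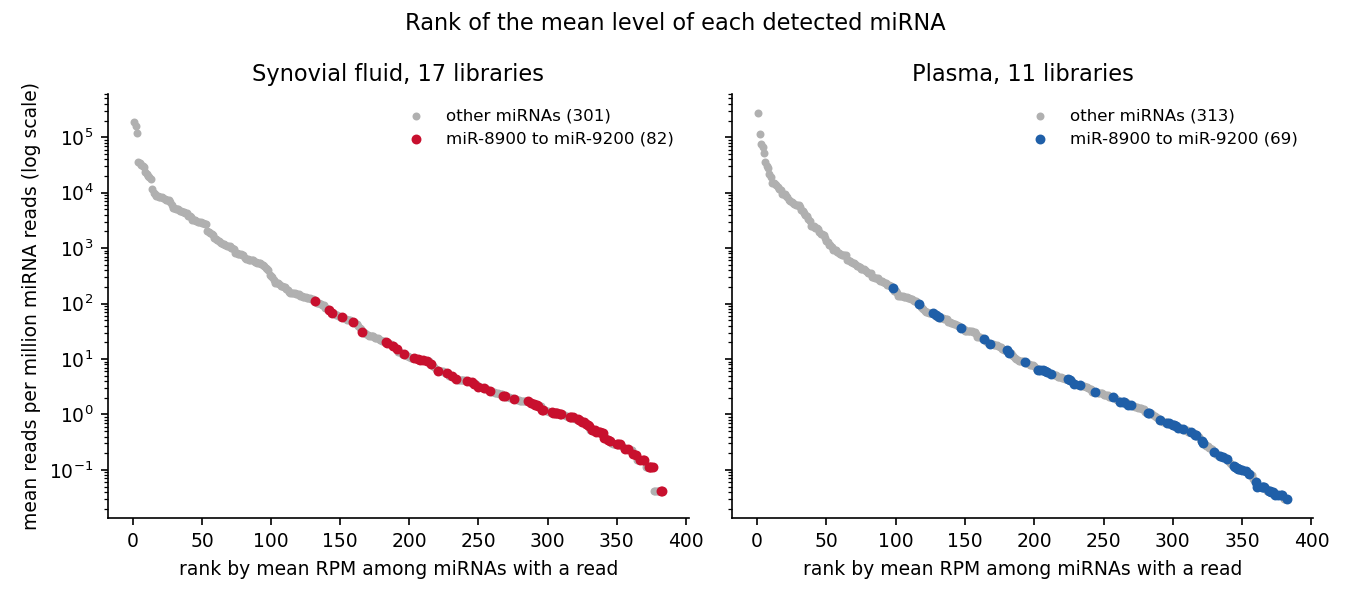
Each point is 1 miRNA with at least 1 read in the fluid, ordered by its mean RPM over the libraries (log scale), for 17 synovial fluid libraries on the left and 11 plasma libraries on the right. Coloured points are the numbered miRNAs, 82 on the left and 69 on the right, which start at rank 132 and rank 98 and fill the low end among the grey other miRNAs.

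The position in the genome is given beside detection as a description. Of the 197 that overlap a protein-coding gene, 77 (39.1%) had a read in some library, and of the 86 with a RefSeq gene in no protein-coding gene 25 (29.1%) had one. For the other miRNAs these shares were 83.5% and 79.1%. Another miRNA gene lay within 2000 bases for 27 of the numbered miRNAs (9.22%), against 159 of the other 397 (40.1%). Of these 27, 17 (63.0%) were seen, and of the 256 with a RefSeq gene and no such neighbour 85 (33.2%). For the other miRNAs the shares were 85.5% with and 79.3% without a neighbour. Of the 27, 13 belong to the miR-8908 group described below and neighbour one another, so they are not independent cases.

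miR-9021, miR-8992, miR-9060 and miR-9097 were the members seen in every library of both fluids. miR-9021 overlaps BRD1, which encodes a bromodomain protein of histone acetyltransferase complexes. It lay between 18.9 and 141 RPM in synovial fluid with a median of 46.7, and between 28.5 and 422 RPM in plasma with a median of 194. In plasma M3 and S9, the 2 libraries with most miR-451, were lowest, and in synovial fluid M1 and S1 were highest. miR-9060 overlaps PINK1, which encodes a mitochondrial kinase. Its range was 15.2 to 190 RPM in synovial fluid (median 52.5) and 4.35 to 135 RPM in plasma (median 58.0). The ranges of miR-9060 overlapped, and 5 of 11 horses had the higher value in plasma.

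miR-8992 has no host gene but lies within 2000 bases of the genes of miR-27a and miR-24, which with miR-23a form a widely expressed cluster. It lay between 6.99 and 215 RPM in synovial fluid (median 55.7) and between 7.57 and 207 RPM in plasma (median 81.7). Its reads were 0.177 ± 0.0942% (SD, n = 17) of those of miR-23a, miR-27a and miR-24 together in synovial fluid and 0.342 ± 0.274% (SD, n = 11) in plasma, so it stood far below its neighbours in all libraries. M4 had the lowest synovial fluid value and S9 the lowest plasma value, as for the 3 neighbours. These were the libraries with most miR-451 in each fluid, and miR-223 and miR-9097 were lowest in them too. The shared lowest libraries are thus not particular to this cluster. Between the fluids, the log2 fold change (plasma over synovial fluid) was 0.81 ± 0.44 (SE) for miR-8992, with an FDR of 0.149 in edgeR. In the same fit it was 1.56 ± 0.35 for miR-27a (FDR 0.000301), 0.54 ± 0.33 for miR-24 (FDR 0.198) and -0.31 ± 0.32 for miR-23a (FDR 0.499).

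miR-9055 and miR-8946 followed in plasma. miR-9055 overlaps CRTC3, a coactivator of CREB-dependent transcription, and lay between 0 and 57.7 RPM in synovial fluid (median 15.4) and between 13.2 and 121 RPM in plasma (median 53.8). miR-8946 overlaps DGCR2, which encodes a membrane protein, and lay between 0 and 45.4 RPM in synovial fluid (median 12.6) and between 12.3 and 57.6 RPM in plasma (median 39.7). Both had reads in every plasma library, whereas 2 synovial fluid libraries had none of miR-9055 and 4 none of miR-8946. miR-9040, in CAMSAP1, which encodes a protein of microtubule ends, had a median of 8.08 RPM in synovial fluid and 13.2 RPM in plasma. miR-8917, in RGL2, which encodes an exchange factor for Ral, had a median of 9.47 RPM in synovial fluid and 7.05 RPM in plasma.

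miR-8922 and miR-8971 had nearly all of their reads in synovial fluid. miR-8922, which has no host gene, had 324 reads over 16 of the 17 synovial fluid libraries, but 172 of these came from S2 and 55 from S12. Its level was 0 RPM in S7, 24.3 RPM at the median, 334 RPM in S2 (95% Wilson interval 288 to 388) and 996 RPM in S12 (765 to 1295). The 11 plasma libraries, with far more reads, held 1 read of it, in S11. miR-8971 overlaps SLC35D1, which encodes a transporter of nucleotide sugars used for chondroitin sulfate. It had 57 reads over 13 synovial fluid libraries, between 0 and 127 RPM with a median of 15.7, and 1 read in plasma, in M4. Unlike these, miR-8986b had reads in every plasma library. It overlaps the ribosomal protein gene RPL27A. It lay between 0 and 308 RPM in synovial fluid, with S1 and S10 far above the median of 9.70, and between 1.67 and 29.95 RPM in plasma, with S8 highest. Its neighbour miR-8986a had 15 reads in synovial fluid and 43 in plasma, and a read that matches both names could have been assigned to either.

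**Figure D3:**
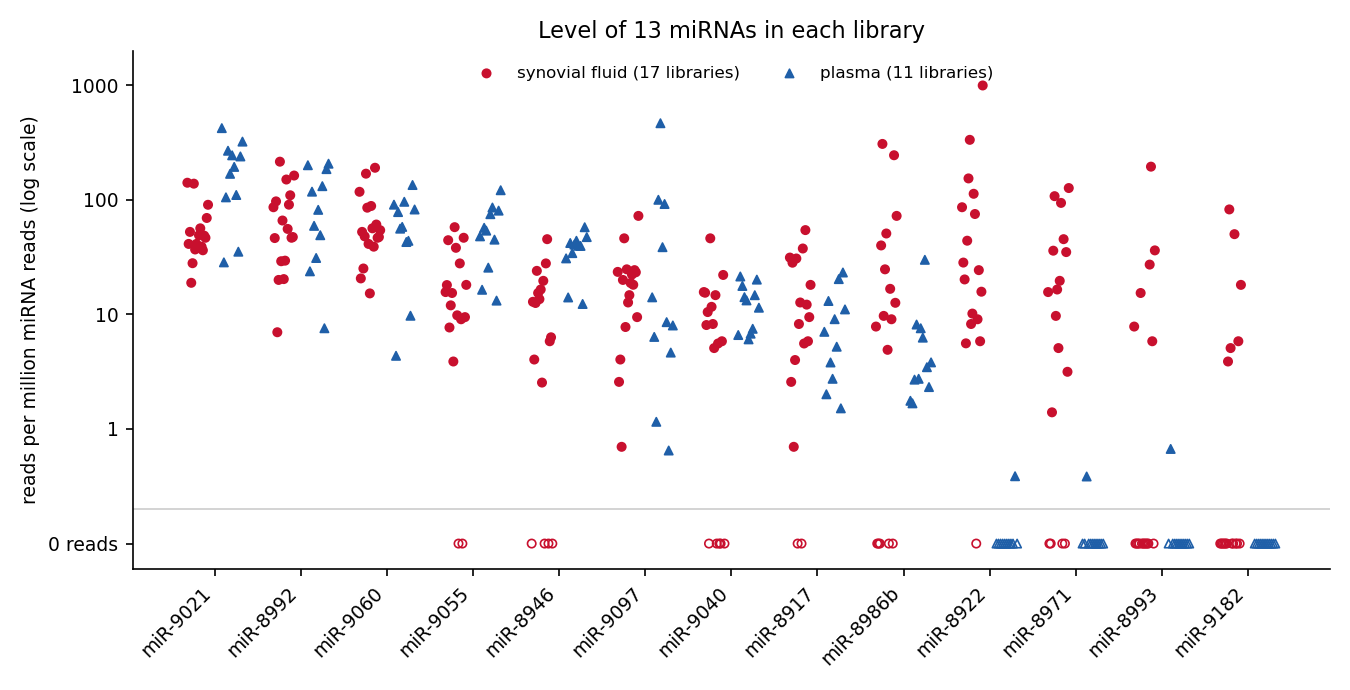
Each point is the level of a miRNA in 1 library in RPM on a log scale, with synovial fluid as red circles (17) and plasma as blue triangles (11), and open symbols under the line mark libraries without a read. miR-9021, miR-8992 and miR-9060 are present throughout, and miR-8922, miR-8971, miR-8993 and miR-9182 are present in synovial fluid with 0 to 2 reads in plasma.

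To ask which of the miRNAs differ between the fluids, the plasma and the synovial fluid of each of 11 horses were compared (22 libraries), with the horse as a block. Of all 414 miRNAs fitted, 172 were called at an FDR under 0.05 in edgeR's quasi-likelihood test (41.5%). Of the 94 numbered miRNAs with a read in these libraries, 15 (15.96%) were called, and of the 320 others 157 (49.1%). The other 199 numbered miRNAs had no read in these libraries. The called members had a median of 130 reads over the 22 libraries and those not called a median of 5 reads, with 38 of these 79 at 3 reads or fewer. In fluids, fewer cells of a type and less RNA released per cell cannot be told apart. The median log2 fold change was 0.21 over the 94, 0.37 over the others and 0.25 over all miRNAs.

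Called higher in plasma were 8 members, beside 23.2% of all miRNAs. miR-9021 was 2.22 ± 0.39 (SE) higher on the log2 scale (FDR 9.5e-06), higher in 9 of 11 horses. miR-9055 was 2.61 ± 0.51 higher (FDR 5.41e-05) and miR-8946 2.42 ± 0.58 higher (FDR 0.000763), each in 10 of 11 horses. M3 and S9 were the exceptions for miR-9021, M3 for miR-9055 and S8 for miR-8946. The remaining 5 were low in both fluids, with means of 5.44 to 6.28 RPM in plasma and 0.857 to 3.97 RPM in the synovial fluid of the same horses. They were miR-9180, miR-8951 (in ABHD17B, a depalmitoylating enzyme), miR-9163 (in ARHGEF7, an exchange factor for Rac and Cdc42), miR-9027 and miR-9179. miR-9180 was 3.68 ± 0.95 higher (FDR 0.00151), with 157 plasma reads against 2 synovial fluid reads. As a ratio of pooled RPM this is 8.71, with a counting interval of 2.37 to 72.6. It is 4.52 without M4, whose synovial fluid library is the deepest, and at least 5.33 without S5, which held both synovial fluid reads.

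Called lower in plasma were 7 members, beside 18.4% of all miRNAs. In each of them plasma held 4 reads or fewer, so the fitted fold changes depend on the prior count. For miR-8922 the pooled level was 43.2 RPM in synovial fluid (124 reads) and 0.0386 RPM in plasma (1 read), a ratio of 1118 with a 95% counting interval of 197 to 44492 (FDR 1.76e-11), and it was lower in plasma in 10 of 11 horses. The ratio was 570 without S12, which gave 55 of the 124 reads, 1874 without M4 and at least 362 without S11, which held the plasma read. miR-8971 had 33 reads against 1, a ratio of 297 (49.8 to 12098, FDR 1.87e-07), lower in plasma in 8 horses, with no read in either fluid of the others. It was at least 167-fold without M4, which held the plasma read. miR-8993 had 23 reads against 2, a ratio of 104 (25.6 to 907, FDR 0.000989), but 16 of the 23 came from S9. Without S9 the ratio was 26.7 (5.08 to 263), without M4 it was 186, and without M3, which held both plasma reads, it was at least 66.9. miR-8996, in the chromatin assembly gene CHAF1A, had 12 reads against 0 and was at least 36.05-fold higher in synovial fluid, taking 3 reads over all plasma libraries as the floor (FDR 0.000166). miR-9182 had 10 reads against 0, at least 30.04-fold (FDR 0.00748), but S7 held 9 of the 10. Without S7 1 read remained, under the floor, and without M4 the bound was 53.9-fold. miR-9094, in the gene of the NF-kappaB cofactor BCL3, had 11 reads in 6 horses against 4 reads in 4 horses (FDR 0.00462). miR-9015 had 3 synovial fluid reads in these horses and none in plasma, which is no more than the floor.

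Of the 15 calls, 12 held whichever horse was left out. miR-9179 was called in 2 of the 11 such fits, and miR-9015 in 4 of the 10 in which it had reads. miR-9182 was not called without S7. DESeq2 did not call miR-8993, miR-8996, miR-9015 and miR-9182, all lower in plasma in edgeR, and called miR-8992 and miR-9040 higher in plasma. miR-9027 and miR-9179 were lost with library size alone, miR-9179 also with RLE size factors and with the newer test, and miR-9015 with all 3 of these. miR-8996, miR-9015 and miR-9182 had too few reads to pass filterByExpr. In miR-9180 leaving out S5, whose synovial fluid held both of its reads, raised the log2 fold change to 6.38.

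**Figure D4:**
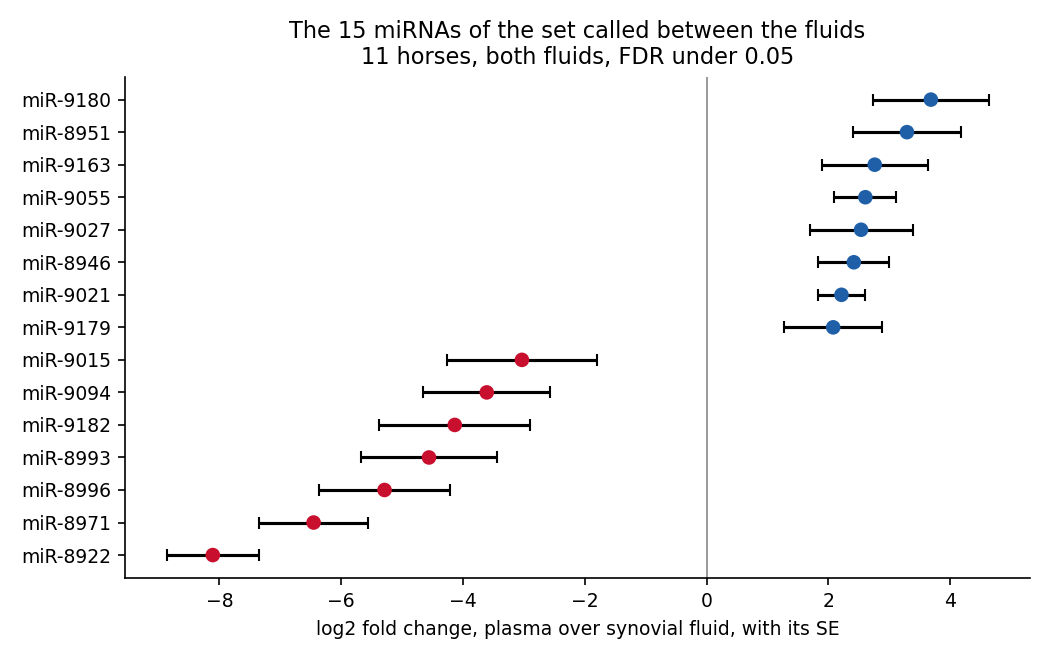
Each point is the fitted log2 fold change (plasma over synovial fluid, 11 horses with both fluids) of 1 of the 15 called miRNAs, with its SE as the bar. The 8 higher in plasma lie between 2.08 and 3.68, and the 7 lower in plasma between -3.03 and -8.11, where plasma held 0 to 4 reads.

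miR-8992, miR-9060, miR-9097, miR-9040 and miR-8986b, though among the more abundant members, were not called. Their log2 fold changes were 0.81 ± 0.44 (SE, FDR 0.149), 0.29 ± 0.44 (FDR 0.657), 0.84 ± 0.63 (FDR 0.312), 1.08 ± 0.62 (FDR 0.171) and -0.37 ± 0.77 (FDR 0.748). With library size alone as the scaling, which moved the median log2 fold change of all miRNAs from 0.25 to -0.35, those of miR-8992 and miR-9060 changed sign. All 15 called members kept their direction under every alternative that could fit them.

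The miR-8908 group is the one large family among the numbered miRNAs, with 14 members, a to n. RefSeq lists 28 genes for them, all on chromosome X, and 27 follow one another with no other gene between. Near-identical copies can share reads, so the split between the members is uncertain and the sum is given here. Of the 14, 10 had a read, with 72 reads in synovial fluid over 6 members and 1032 reads in plasma over 10. The summed level was 25.3 ± 25.9 RPM (SD, n = 17) in synovial fluid. In plasma it was 578 RPM in S8 (95% Wilson interval 531 to 628), 59.3 RPM in S9 (52.6 to 66.7) and 28.6 RPM in S11, and between 1.51 and 21.9 RPM in the other 8 libraries. S8 and S9 held 814 of the 1032 plasma reads (78.9%). Without S8 the plasma mean was 15.1 ± 17.8 RPM (SD, n = 10), against 66.2 ± 170 RPM (SD, n = 11) with it.

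In S8 all 10 members of the family with reads were present, and they took 53.9% of all reads of the numbered miRNAs in that library. miR-8908j was at 188 RPM there, miR-8908g at 171 RPM and miR-8908e at 120 RPM, while the highest values of the next library were 18.8, 20.1 and 12.3 RPM, all in S9. S8 and S9 were the highest and next highest library for each of the 3, followed by S11 for miR-8908g and miR-8908e and by S5 for miR-8908j. Between the fluids, neither miR-8908j (log2 fold change 2.11 ± 0.90, SE, FDR 0.0592) nor miR-8908g (0.62 ± 0.79, FDR 0.584) was called.

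The S8 plasma library also stood apart for miR-122. miR-122 was at 5399 RPM in S8, 308 RPM in S9, 161 RPM in S11 and 2.27 to 43.9 RPM in the other 8 plasma libraries. The 3 highest libraries, in this order, were thus the same for miR-122 and for the miR-8908 sum. In synovial fluid the 3 highest libraries were also shared, with miR-122 at 635 RPM in S8, 463 RPM in S9 and 175 RPM in S10, and the miR-8908 sum at 45.4, 97.4 and 58.3 RPM. The sum in synovial fluid rests on 5, 8 and 10 reads in these libraries. Both are shares of the same library, the pair was chosen after the values were seen, and the part of liver RNA in the miR-8908 reads was not tested.

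miR-9097 overlaps CD300LB, which encodes an activating receptor of myeloid cells. It lay between 0.699 and 72.4 RPM in synovial fluid (median 18.8), with 1 to 5 reads in every library. In plasma its median was 8.56 RPM, but it reached 466.004 RPM in S5 (1020 reads), 100 RPM in S1, 91.9 RPM in S7 and 38.6 RPM in S6, against 0.649 to 14.1 RPM in the other 7 libraries. Those 4 libraries, in that order, were also the highest in miR-223, the abundant miRNA of neutrophils and platelets, at 49034, 32425, 31582 and 18120 RPM, against 1200 to 8459 RPM in the others. Synovial fluid did not share this order. There the 4 highest libraries for miR-9097 were S12, S1, S3 and S9, which ranked 2, 4, 14 and 7 for miR-223. The library highest in miR-223, S7, ranked 7 for miR-9097. This pair too was chosen after the values were seen, and the part of myeloid cells in the miR-9097 reads was not tested.

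**Figure D5:**
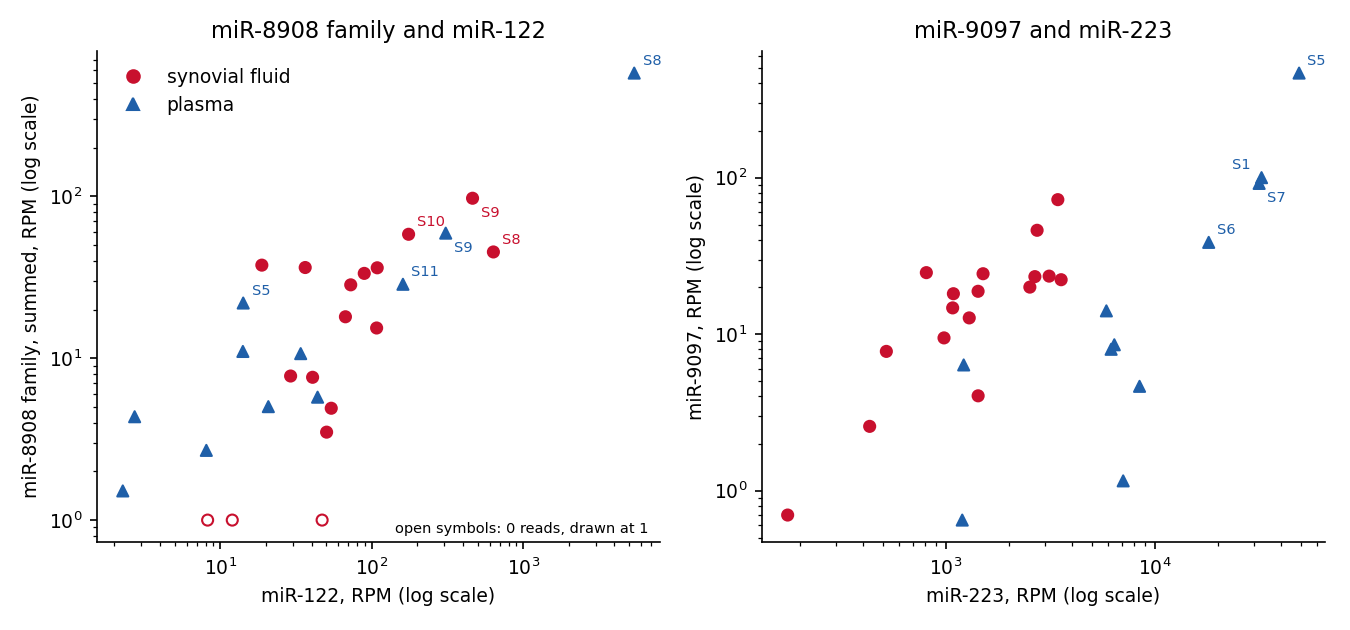
Each point is 1 library, with synovial fluid as red circles (17) and plasma as blue triangles (11), on log scales in RPM, and open symbols drawn at 1 RPM mark libraries with 0 reads of the family. On the left the summed miR-8908 family is plotted against miR-122, with S8 plasma at 578 and 5399 RPM, and on the right miR-9097 against miR-223, with the 4 highest plasma libraries labelled.

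Severe was compared with mild OA within each fluid, the question for which the synovial fluid was collected. The share of miRNA reads was 0.0346 ± 0.0200% (SD, n = 5) in mild and 0.0727 ± 0.0483% (SD, n = 12) in severe synovial fluid, with overlapping ranges of 0.0106 to 0.0650% and 0.0267 to 0.192%. In plasma it was 0.0526 ± 0.0385% (SD, n = 3) in mild and 0.0725 ± 0.0272% (SD, n = 8) in severe OA, again overlapping. miR-451, which takes part in the denominator, had a log2 fold change of -1.75 ± 0.67 (SE, FDR 0.0977) in severe against mild synovial fluid. With miR-451 left out of the denominator the shares were 0.0423 ± 0.0165% (SD, n = 5) in mild and 0.0844 ± 0.0493% (SD, n = 12) in severe synovial fluid. In RPM by the whole library the order was the other way, with 14.1 ± 6.65 (SD, n = 5) in mild and 12.5 ± 6.37 (SD, n = 12) in severe synovial fluid, and 308 ± 254 (SD, n = 3) against 268 ± 110 (SD, n = 8) in plasma, all with overlapping ranges.

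In synovial fluid 9 of the 57 miRNAs tested after independent filtering (15.8%) were called at an FDR under 0.1, and none of the 57 was a numbered miRNA, since the filter set its cutoff at a mean of 1691 CPM, counts scaled to the library size. The edgeR fit held 82 numbered miRNAs, of which 8 had an unadjusted p under 0.05, beside 48 of all 383 miRNAs fitted. With no filter, 0 of the 383 were called. DESeq2 called 0 of the 82, with 1 at an unadjusted p under 0.05, beside 32 of the 383. Among the numbered miRNAs, miR-9182 had the smallest p in edgeR (0.00353, FDR 0.216 with no filter). It overlaps COL3A1, which encodes the chain of type III collagen of connective tissue. It had no read in 5 of 5 mild libraries and in all plasma libraries, and 25 reads in 6 of the 12 severe libraries. It was at 82.5 RPM in S3, 50.2 in S7, 18.1 in S12, 5.83 in S10, 5.08 in S4 and 3.88 in S2, and at 0 in the other six severe libraries, so the groups overlap at 0. Pooled over libraries it was at least 8.98-fold higher in severe OA against a floor of 3 reads over the mild libraries. The bound was 5.70-fold without S3, which held 10 of the 25 reads, and 3.73-fold without M4, the deepest mild library.

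miR-9027 (p = 0.00742, FDR 0.216 with no filter) had 8 reads in 6 severe libraries and none in mild ones, at least 2.88-fold, or 1.19-fold without M4, and miR-8920 (p = 0.008, FDR 0.216) had 7 reads in 3 mild libraries and 1 in a severe one, a ratio of 6.49 with a counting interval of 0.834 to 293. The ratio for miR-8920 was 2.21 without M2 and 13.4 without M4, and at least 2.05 without S3, which held the severe read. Under 3 settings 1 member was called. These were miR-9182 with the newer quasi-likelihood test (FDR 0.0765), miR-9015 with age as a covariate (FDR 0.0999) and miR-8986b without M5 (log2 fold change 4.98 ± 1.37, SE, FDR 0.0913), all higher in severe OA. miR-8986b had 10 of its 11 mild reads in M5, and with all horses its log2 fold change was 1.97 ± 1.09 (FDR 0.449 with no filter).

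In plasma 0 of 382 miRNAs were called between severe and mild OA in edgeR (0%), numbered miRNAs included, with 19 at an unadjusted p under 0.05, and DESeq2 called 0, with 22. Of the 69 numbered miRNAs fitted, 6 had an unadjusted p under 0.05, with 3 mild horses in the comparison. miR-9080 (in ANKRD26, p = 0.0092, FDR 0.717) was at 1.32, 0.335 and 0 RPM in M1, M3 and M4 and between 0.433 and 10.6 RPM in the 8 severe horses, where S9 fell within the mild range. miR-8908g (p = 0.0243, FDR 0.717) was at 0.881, 1.004 and 0 RPM in the mild horses and between 0.544 and 171 RPM in the severe ones, and its p was 0.0573 without S8, 0.0578 without S9 and 0.0618 to 0.0784 without a mild horse. miR-9178 (p = 0.0265, FDR 0.717) had 3 reads in all, in M1 and M4, which is the floor. The severe and mild groups overlapped for miR-9080 and miR-8908g.

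The interaction asked whether the difference between severe and mild OA differed between plasma and synovial fluid in the 22 paired libraries. Of 414 miRNAs 0 were called (0%) in edgeR, with 10 at an unadjusted p under 0.05, and DESeq2 called 0 as well. One numbered miRNA had an unadjusted p under 0.05, miR-8993 (p = 0.0155, FDR 0.908), followed by miR-8971 (p = 0.0575) and miR-9080 (p = 0.0767). All plasma reads of miR-8993 were 2 reads in M3, and the only plasma read of miR-8971 was in M4, both mild horses.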

How the data were processed

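Per the labels and the study's methods, libraries were made with the RealSeq Biofluids kit, without molecular identifiers. The authors trimmed with cutadapt, aligned with Bowtie to the horse genome and then to horse miRBase entries, and deposited per miRNA the read count, not normalised, with the RPM by whole library and by miRNA reads. The methods describe synovial fluid, so steps specific to plasma are not given in the sources used here. Here RPM was recomputed from counts over the 690 miRNAs, without spike-ins. Intervals (95%) and floors (3 reads) cover counting error only. The model of the counts was edgeR 4.0.16 under R 4.3.3 (older quasi-likelihood test, TMM, Benjamini-Hochberg), with independent filtering over 50 cutoffs for severity and a block for horse between fluids. Fluid libraries were paired where the labels give the same age, breed and sex. Detection at equal depth is a hypergeometric expectation. DESeq2 1.42.0 used size factors for sparse counts. Alternatives were other scalings, filters and left-out horses. The fits were tested on simulated data. Changes were planted only in miRNAs with at least 50 reads, so sparser members were not covered. Named are the 8 most abundant members per fluid, those in every library, the 5 called with the smallest p per direction, or the 3 with the smallest p where none was called. The number range defines the members, but this range and the lists were picked for study with earlier results of these data known. Leaving out horses from pooled ratios was added after seeing the data. Mature sequences were not used here, so seed matches were not examined. Each library is 1 horse.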

Additional observations from a re-analysis of the deposited data

Results flagged for a closer look

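In groups of 4 to 10 libraries, 7 of 24 checks met Dixon's criterion for a library far from the others. Its rate of about 1 in 20 holds for independent, normally distributed values. Most of the values checked were of miRNAs picked by their mean level, which a far library itself raises. The count therefore cannot be set against chance. Within severe OA plasma, S8 stood apart for miR-8908j (188 RPM, next 18.8), miR-8908g (171 RPM, next 20.1) and the summed miR-8908 family (578 RPM, next 59.3), which are 1 signal because the sum holds both. In the same group S5 stood apart for miR-9097, at 466.004 RPM with the next library at 100 RPM. Within mild OA synovial fluid, M1 stood apart for miR-9021 (141 RPM, next 52.5), M5 for miR-8986b (39.98 RPM, next 7.83) and M3 for miR-9055 (44.4 RPM, next 18.0), on 18, 10 and 11 reads.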

How the results depend on the processing

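Between the fluids, 12 to 22 members were called under the alternatives. It was 13 with RLE size factors, the newer quasi-likelihood test, DESeq2 or filterByExpr, 12 with library size alone or an FDR under 0.01, 19 with independent filtering and 13 to 16 with 1 horse left out. Without the block for the pairing of horses, 22 were called. Over all miRNAs the calls split into 96 higher and 76 lower in plasma, and into 44 and 87 with library size alone. Among members not called, the log2 fold change turned to -0.41 for miR-8908g, -0.067 for miR-8992 and -0.53 for miR-9060 with library size alone. That of miR-8986b turned to 0.18 in DESeq2, 0.0017 without S1 and 0.034 without S12, in a range of -0.79 to 0.034 with 1 horse left out. In synovial fluid severity, 1 member was called with the newer quasi-likelihood test and 1 with age as a covariate, and 0 to 1 with a mild horse left out. Over all miRNAs the 9 calls became 18 with the newer test, 2 with library size alone, 0 with no filter, and 1 with RLE size factors, DESeq2, filterByExpr or age, and ranged from 1 to 18 with a mild horse left out. In plasma and in the interaction, 0 members were called under every alternative, including S8 or S9 left out, which was added after seeing the data. Over all miRNAs in plasma, 2 were called without S9. Detection moved most. In synovial fluid 82 members became 32 with at least 3 reads, 10 with at least 10 reads, 46 in at least 2 libraries and 4 in every library. In plasma 69 became 43, 29 and 15 (in every library). Counting only the 11 horses with both fluids, synovial fluid held 67 members. At 10000 reads the expected number was 4.17 in synovial fluid and 3.96 in plasma. The shares of miRNA reads moved by less than the SD between libraries. Depth limits the synovial fluid values most, since 3 reads stood for up to 56.4 RPM there and up to 3.21 RPM in plasma.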
